A study of Mus musculus with 35 samples.

Results

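H3K4me3 peaks of hematopoietic stem and progenitor cells (HSPC) carrying Npm1c were compared with those of WT HSPC. The 4 libraries, 2 Npm1c and 2 WT, were chosen by their sample labels from 35 samples of a mouse bone marrow ChIP-seq series. HSPC were the lineage-negative marrow fraction left after a depletion kit had removed mature cells, so each library held a mixture of progenitors with any mature cells that the kit left behind. The comparison groups were Npm1c HSPC, Flt3-ITD HSPC, DM HSPC (an abbreviation that the labels do not spell out), WT neutrophils taken from marrow with an isolation kit, and WT HSPC, each with 2 libraries for H3K4me3, H3K27ac and H3K4me1. All mice were labelled C57BL/6. The labels give no age, sex, promoter or Cre line for the Npm1c allele, and no number of mice per library; the series design calls the 2 libraries of a group biological replicates.

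Npm1c is a frameshift form of nucleophosmin, a nucleolar chaperone, that gains an export signal and collects in the cytoplasm. It is among the most frequent lesions of acute myeloid leukaemia, and in mice it is known for high expression of Hox genes in progenitors. H3K4me3 is laid down by SET1 and MLL complexes at gene starts, above all at starts rich in CG dinucleotides, and further peaks lie in strong enhancers. In marrow progenitors it covers starts that are active, and many developmental starts that are held silent with Polycomb marks.

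The lists held 38540 and 32449 peaks in Npm1c HSPC, against 30295 and 34322 peaks in WT HSPC, on chromosomes 1 to 19, X and Y. Every peak was 1000 bp wide, so covered length follows the number of peaks. It averaged 35.5 ± 4.31 Mb in Npm1c HSPC and 32.3 ± 2.85 Mb in WT HSPC (SD, n = 2 each), and the groups overlapped (two-sided exact permutation test, p = 0.667; the smallest p that 2 against 2 libraries allow is 1 in 3). The files give no read counts, so depth is unknown, and a longer list and a deeper or cleaner library cannot be told apart. Lists of a group were no more alike than lists of different groups: the base-pair Jaccard index was 0.667 for the Npm1c pair and 0.693 for the WT pair, against 0.626 to 0.699 for the 4 mixed pairs. Npm1c replicate 1 had the longest list and the lowest indices with WT HSPC, at 0.626 and 0.633.

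In windows of 300 bases at gene starts, more peaks were absent from Npm1c HSPC than were found only there. Within 1 kb of the start the gained and lost counts were close. The lost starts included those of Camp, S100a9, Ly6g, Cd79a and Wnt3a, and the gained starts included the upstream start of Mecom. Of 32851 RefSeq start windows of 300 bases, 136 (0.414%) held a peak in both Npm1c libraries and in neither WT library (gained), and 247 (0.752%) held the reverse (lost); 11910 held a peak in all 4. The crossed splits of the same libraries, each side with 1 library of either genotype, gave 60 and 59 windows for equal replicate numbers, and 180 and 49 for unequal ones. The lost count was above the largest crossed count, and the gained count was below it. Without WT replicate 1 the gained and lost counts were 244 and 601, without WT replicate 2 they were 310 and 377, without Npm1c replicate 1 they were 254 and 847, and without Npm1c replicate 2 they were 412 and 359, which turns the order round. Many of these windows lay beside a peak whose position differed: with 1 kb on both sides of the start, 85 starts (0.259%) were gained and 91 (0.277%) lost, against 45, 42, 100 and 22 in the crossed splits. Here the gained and the lost count both lay below the largest crossed count. The narrower sets with 1 kb on both sides, of 28 and 57 protein-coding genes, are described here. Presence at a single start was not tested; the limma test per gene is given further on. For these and all other results from marrow fractions, fewer cells of a type and less of the mark per cell cannot be told apart.

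The start windows of 5 genes, 250 bases before to 50 after the start, show the range of sequence at these genes. They come from RefSeq GRCm38.p6, the same assembly as mm10, and have CG dinucleotides in capitals. They were picked after the values were seen. Camp and S100a9, both lost, encode a neutrophil antimicrobial peptide and a subunit of calprotectin. Wnt3a, lost, encodes a Wnt ligand that is used in embryonic patterning. Mecom, gained, encodes a zinc-finger regulator of blood stem cells, and Bsx, gained, encodes a homeodomain factor of the hypothalamus and pineal gland.
Camp, chr9:109849407-109849706, minus strand: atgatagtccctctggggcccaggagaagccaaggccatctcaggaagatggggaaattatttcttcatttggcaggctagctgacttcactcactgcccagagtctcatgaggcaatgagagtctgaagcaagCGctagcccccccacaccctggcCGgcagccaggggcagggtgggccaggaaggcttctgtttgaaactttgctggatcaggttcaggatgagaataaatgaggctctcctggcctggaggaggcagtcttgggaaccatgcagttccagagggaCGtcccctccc
S100a9, chr3:90695672-90695971, minus strand: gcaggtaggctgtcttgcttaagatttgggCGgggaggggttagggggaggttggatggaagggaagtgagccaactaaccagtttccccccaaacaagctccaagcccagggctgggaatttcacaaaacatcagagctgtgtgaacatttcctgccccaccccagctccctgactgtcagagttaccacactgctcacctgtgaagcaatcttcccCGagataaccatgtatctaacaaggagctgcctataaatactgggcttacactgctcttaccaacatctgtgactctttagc
Wnt3a, chr11:59290702-59291001, minus strand: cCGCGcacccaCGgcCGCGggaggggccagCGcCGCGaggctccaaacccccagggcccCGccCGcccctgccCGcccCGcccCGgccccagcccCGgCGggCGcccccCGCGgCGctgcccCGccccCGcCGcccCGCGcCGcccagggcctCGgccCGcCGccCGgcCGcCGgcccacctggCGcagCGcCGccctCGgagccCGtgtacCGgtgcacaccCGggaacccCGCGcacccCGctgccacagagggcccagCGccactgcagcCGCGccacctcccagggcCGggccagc
Mecom, chr3:30509710-30510009, minus strand: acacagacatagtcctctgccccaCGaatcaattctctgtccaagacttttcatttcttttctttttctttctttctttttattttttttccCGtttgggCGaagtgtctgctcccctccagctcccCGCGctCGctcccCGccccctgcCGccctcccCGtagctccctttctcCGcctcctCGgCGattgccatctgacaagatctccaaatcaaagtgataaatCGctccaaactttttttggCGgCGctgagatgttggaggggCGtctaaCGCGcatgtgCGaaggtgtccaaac
Bsx, chr9:40873877-40874176, plus strand: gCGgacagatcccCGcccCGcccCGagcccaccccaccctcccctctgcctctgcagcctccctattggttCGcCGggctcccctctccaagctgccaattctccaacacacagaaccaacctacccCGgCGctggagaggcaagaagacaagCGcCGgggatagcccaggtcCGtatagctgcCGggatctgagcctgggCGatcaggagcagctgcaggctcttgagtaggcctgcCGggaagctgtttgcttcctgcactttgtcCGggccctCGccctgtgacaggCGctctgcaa

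The CG motif, which reads the same on both strands, occurred 3 times in the Camp window, 2 times in that of S100a9, 45 times in that of Wnt3a, 19 times in that of Mecom and 17 times in that of Bsx. At least 1 CG is present in 94.6% of all 32851 windows, so it is the number that differs. Over genes, the median number of CG was 6 at gained starts (range 0 to 27), 11 at lost starts (range 0 to 45), 21 at starts shared by all 4 libraries and 3 at starts without a peak in any of them. Both changed sets thus lay between the shared and the unmarked starts.

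The lost starts were marked in neutrophils less often than gene starts in general. A peak within 1 kb was present in both WT neutrophil libraries at 19 of the 57 genes (33.3%) and in neither at 37, against 93.0% for the starts shared by the 4 libraries and 57.7% for all protein-coding genes with 1 start each. The 19 genes include Camp, S100a9, Ly6g (the surface antigen used to sort neutrophils), Ly6c2 (a monocyte antigen), Asprv1, Steap4, Cd300c2 and Cd80. At Camp, the 2 Npm1c libraries had 0 bp of peak within 1 kb of the start, against 938 and 550 bp in the 2 WT libraries, and neutrophils had 897 and 915 bp. At S100a9 the values were 0 bp in both Npm1c libraries, against 946 and 942 bp in WT HSPC, and 919 and 922 bp in neutrophils. At these starts WT HSPC thus stood with neutrophils; a peak further from the start remained at Camp and S100a9 in Npm1c replicate 2. Ly6g and Ly6c2 belong to a family of similar copies, among which reads may have been split.

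Part of these 19 starts were also without a peak in the other mutants. Camp, S100a9, Ly6g, Ly6c2, Asprv1 and Cd80 had none in either Flt3-ITD or either DM library, which makes 6 of the 19 genes. H3K27ac covered the Camp and S100a9 starts in both neutrophil libraries and in no Npm1c or WT HSPC library.

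The 37 lost starts without a neutrophil peak include Wnt3a, Ihh and Grem1 (secreted signals or their antagonist), Gsx2, Pou4f2 and Bhlha9 (transcription factors), Kl (klotho) and Cxcl14 (a chemokine), named here after their values were seen. None of the 63 genes in a list of developmental transcription factors, and none of the 39 HOX genes, had a start lost in this sense. At Wnt3a the Npm1c libraries had 0 bp each, against 1000 bp in each WT library. Ihh had 0 bp in both Npm1c libraries, against 1027 and 1000 bp in WT HSPC. Cd79a and Fcrla, a B-cell receptor subunit and an Fc receptor-like protein of B cells, and H2-Eb1, a class II chain, were in this set too. Of these 37 genes, 23 kept a peak in both Flt3-ITD libraries, and 3 had none in any Flt3-ITD or DM library.

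**Figure D1:**
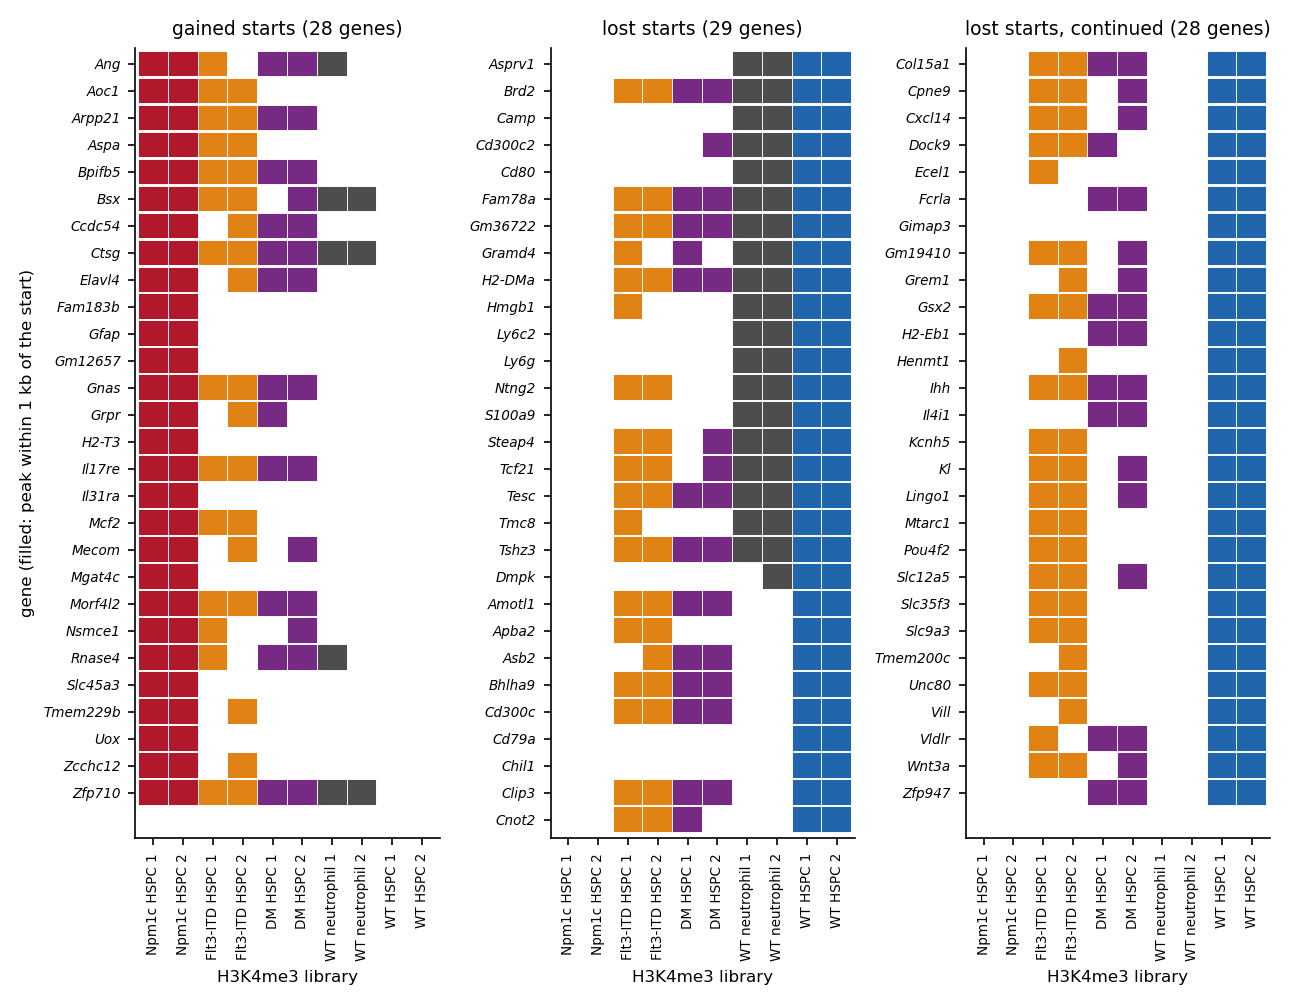
Presence of an H3K4me3 peak within 1 kb of the start (filled square) for the 28 protein-coding genes with a gained start and the 57 with a lost start (rows), in 10 libraries (columns, coloured by group). The Npm1c and WT columns are fixed by the rule; the other 6 columns were not used by it, and 19 lost starts are filled in both neutrophil columns.

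Few of the gained starts carried the mark in neutrophils. A peak was present in both neutrophil libraries at 3 of the 28 genes (10.7%) and in neither at 23. In both Flt3-ITD libraries it was present at 11 genes (39.3%, against 62.4% of all genes), and in both DM libraries at 11 (39.3%, against 60.2%). At Mecom, each Npm1c library had 1000 bp within 1 kb of the upstream start (base 30509759 of chromosome 3, the 5′ end of the gene), against 0 bp in each WT library. The other annotated start of Mecom, at base 30013204, had a peak in all 4 libraries. Flt3-ITD replicate 2 and DM replicate 2 also had the upstream peak. Ctsg, which encodes the primary-granule protease cathepsin G, had its gained peak 232 bp from the annotated start, and that peak was present in all Flt3-ITD, DM and neutrophil libraries. H3K27ac was present at 6 of the 28 gained starts in both Npm1c libraries, and at 6 in both WT libraries.

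Over the whole genome, gains outnumbered losses, and most gained peaks lay away from gene starts. The 4 lists merged into 43557 regions, of which 26849 had a peak in all 4. There were 1543 gained regions (3.54%) and 367 lost regions (0.843%). The crossed splits gave 1189 regions held only by Npm1c replicate 1 and WT replicate 2, and 170 held only by Npm1c replicate 2 and WT replicate 1. For equal replicate numbers the counts were 383 for replicate 1 and 293 for replicate 2. The gained count was thus above the largest crossed count, and the lost count lay among the crossed counts. Both moved with single libraries: gained and lost were 2159 and 2881 without WT replicate 1, 6878 and 849 without Npm1c replicate 2, 2308 and 1258 without Npm1c replicate 1, and 3222 and 848 without WT replicate 2. With the lists thinned to equal length they were 1262 and 878. For this, peaks were dropped in a single random draw down to the shortest list, WT replicate 1, which stayed whole. Dropping Npm1c peaks at random can add losses by construction.

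**Figure D2:**
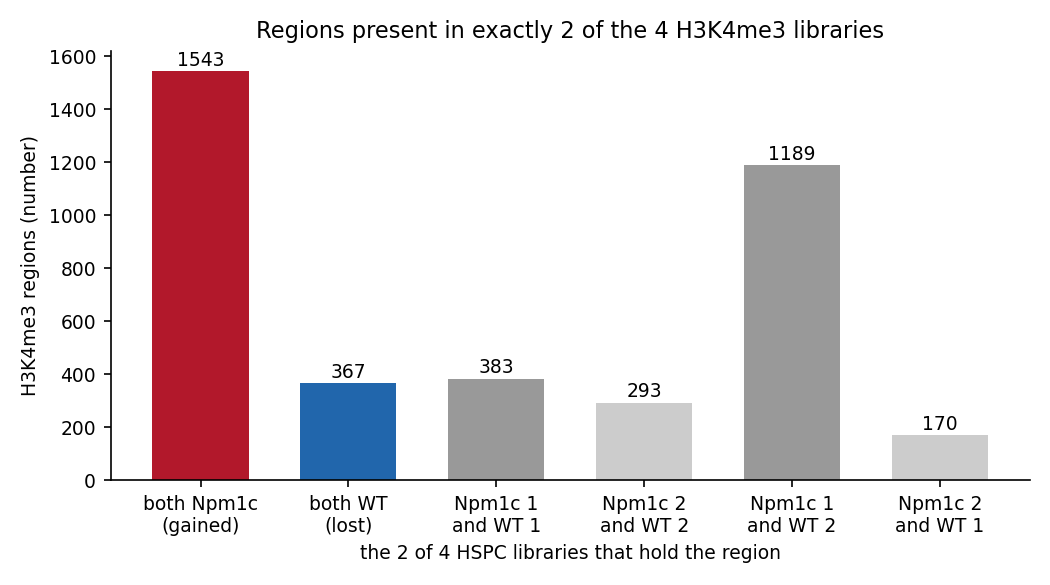
Number of H3K4me3 regions (y axis) found in exactly 2 of the 4 HSPC libraries, for each possible pair of libraries (x axis). The gained bar reaches 1543 and the next highest, Npm1c replicate 1 with WT replicate 2, reaches 1189; the lost bar, at 367, is close to the bar of 383.

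Leaving out chromosome 18, whose starts are not used here, a RefSeq start lay inside 3.62% of gained, 14.0% of lost and 37.4% of shared regions. The median distance to a start was 19212 bp for gained and 5200 bp for lost regions. The nearest WT peak was a median of 9714 bp from a gained region, and the nearest Npm1c peak a median of 2725 bp from a lost one. An Npm1c peak lay within 1000 bp of 21.8% of lost regions, and a WT peak lay that near to 11.1% of gained regions.

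H3K4me1, the mark of enhancers and promoter flanks, was slightly more frequent at gained regions than at all regions, where it was found at 77.8% and 84.1% in Npm1c HSPC, against 82.3% and 83.4% in WT HSPC. In Npm1c HSPC 84.8% and 89.6% of gained regions had an H3K4me1 peak, against 86.9% and 87.9% in WT HSPC. At lost regions the shares were 52.9% and 69.2% in Npm1c HSPC, against 70.3% and 77.1% in WT HSPC, which do not overlap. The H3K4me1 lists held 102907 and 125697 peaks in Npm1c HSPC, against 122855 and 131179 in WT HSPC. The part of their length in the H3K4me1 shares was not tested. H3K27ac, the mark of active elements, was found at 22.0% and 21.8% of gained regions in Npm1c HSPC, against 10.2% and 10.2% in WT HSPC. At lost regions it was 10.6% and 14.2% in Npm1c HSPC, against 8.72% and 10.1% in WT HSPC. Npm1c HSPC had more H3K27ac peaks overall (29045 and 30143, against 22060 and 21704 in WT HSPC), and at shared regions the shares were 56.7% and 63.4% in Npm1c HSPC, against 48.6% and 49.1% in WT HSPC. The part of list length in these shares was not tested. H3K27ac itself was gained in both Npm1c libraries and absent from both WT libraries at 96 gained regions (6.22%) and at 5.90% of shared regions.

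Lost regions were in neutrophils about as often as regions in general, and gained regions less often. WT neutrophils had an H3K4me3 peak at 16.7% and 19.1% of gained regions and at 53.4% and 54.0% of lost regions, against 57.6% and 58.2% of all regions. Neutrophil H3K27ac was present at 9.14% and 9.79% of gained and 29.7% and 30.2% of lost regions, against 31.9% and 32.3% of all regions. A like contrast appeared wherever Npm1c replicate 1 was set apart. Among regions held only by Npm1c replicate 1 and WT replicate 1, 20.4% and 20.6% were in neutrophils, and for Npm1c replicate 1 and WT replicate 2 it was 16.7% and 18.3%. Among those held only by Npm1c replicate 2 and WT replicate 2, 57.0% and 57.7% were in neutrophils, and for Npm1c replicate 2 and WT replicate 1 it was 57.6% and 61.2%. So the share followed the absence of a peak from Npm1c replicate 1 as closely as it followed genotype. A peak in both neutrophil libraries was found at 51.2% of lost and 15.2% of gained regions with all 4 libraries, at 31.3% and 22.8% without Npm1c replicate 1, at 68.4% and 8.08% without Npm1c replicate 2, at 43.9% and 22.7% without WT replicate 2, and at 20.5% and 20.8% without WT replicate 1.

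**Figure D3:**
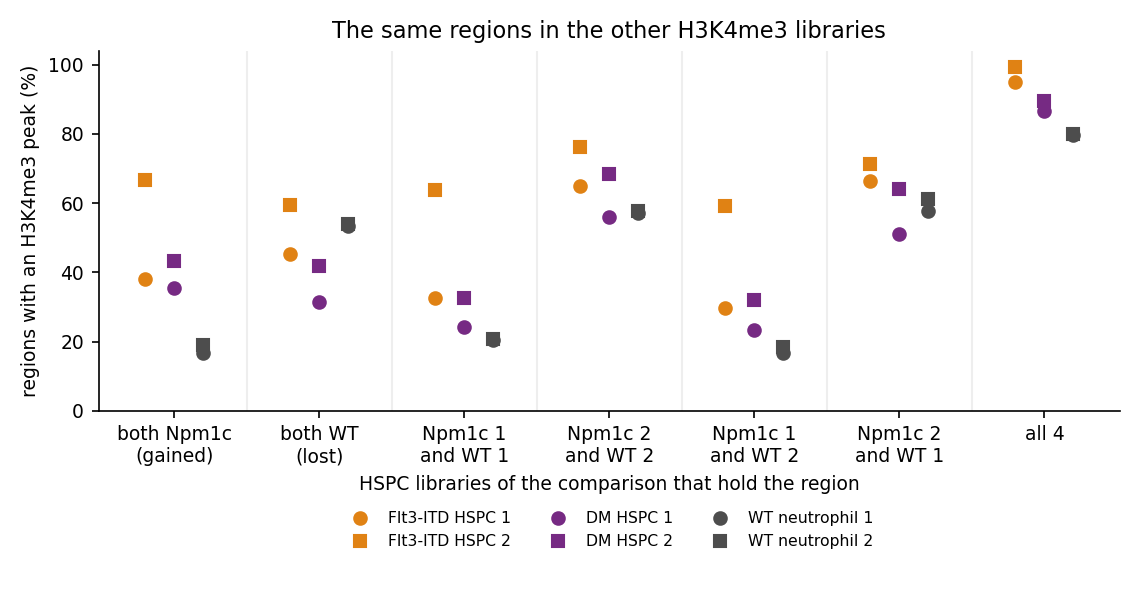
Share of regions (y axis, percent) that have an H3K4me3 peak in each Flt3-ITD, DM and neutrophil library, for regions grouped by which of the 4 compared libraries hold them (x axis). Both neutrophil shares are under 21% in the 3 groups held by Npm1c replicate 1 and a second library only, and over 53% in the 3 groups that lack it.

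The other mutants carried both sets less often than regions in general. A peak was present in Flt3-ITD HSPC at 38.2% and 66.6% of gained and at 45.2% and 59.4% of lost regions, against 70.5% and 80.3% of all regions. In DM HSPC it was present at 35.6% and 43.3% of gained and at 31.3% and 41.7% of lost regions, against 63.2% and 67.9% of all regions. The 2 libraries of each of these groups differed from each other by more than gained and lost regions differed within a library.

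The widest regions arise where the peaks of 2 lists are offset. The 6 widest gained regions were 1838 to 1979 bp and the 6 widest lost regions 1842 to 1955 bp. Gained ones lay in Elf1 (an ETS factor of blood cells), Snx30, Camk2b and at Plaa and Gm12657, and 2 lay outside genes. Lost ones lay in Il2rb (the interleukin-2 receptor beta chain), Birc2, Pgd, Syngr2 and Med7, and 1 lay outside genes. The lost regions of Il2rb (chr15:78492669-78494575) and Birc2 (chr9:7822503-7824396) had no peak in any Flt3-ITD, DM or neutrophil library.

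The genes with the most gained regions were long. Of 21883 protein-coding genes with 5 kb on each side, 1004 (4.59%) held a gained region and 343 (1.57%) a lost one. Foxp1 and Zbtb16 held 5 gained regions each, and Mecom, Pcdh7 and Pde4d 4 each. Those with 3 were Erg, Mllt3, Elf1, Bcl11a, Zfhx3, Tgfbr2, Tcf4, Sox5, Pde4b, Sh3kbp1, Sipa1l1, Ext1, Zmiz1, Ano6 and Ankrd11. The crossed set of Npm1c replicate 1 and WT replicate 2 touched nearly as many genes, 937. With 2 or more regions there were 114 genes for gained regions, against 91 for that crossed set, and with 3 or more there were 20, against 10. Genes with a gained region had a median span of 74.6 kb, against 44.2 kb for the crossed set and 17.2 kb for all genes. Zbtb16 encodes PLZF, a repressor in stem and lymphoid cells, and the 5 gained regions lay between bases 48723146 and 48807199 of chromosome 9. Its summed peak was 18 and 13 kb in the Npm1c libraries, against 9 and 7 kb in the WT libraries. The crossed sets held 1 region of Zbtb16 in all. That of Npm1c replicate 1 and WT replicate 2 held 3 regions of Foxp1. Erg had 1 region in that of Npm1c replicate 2 and WT replicate 2, and 1 in that of Npm1c replicate 2 and WT replicate 1.

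No gene held more than 2 lost regions, and 9 held 2. Slc35f3, a solute carrier, had 0 kb of peak in each Npm1c library, against 2 kb in each WT library. Fgr, a Src-family kinase of myeloid cells, had 2 kb in each Npm1c library, against 4 kb in each WT library. C5ar1, the C5a receptor of neutrophils and monocytes, had 1.70 and 3.78 kb in Npm1c HSPC, against 5.72 and 5.85 kb in WT HSPC. These 3 genes were picked by their lost regions, so the lower values in both Npm1c libraries follow largely from the rule. None of the crossed sets held a region of them.

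Peak length per gene, over the span and 5 kb on each side, was then tested. Across all genes, the moderated test of limma on log2(bp + 500) over 10 libraries called 156 of 16134 genes higher in Npm1c HSPC (0.967%) and 65 lower (0.403%) at a Benjamini-Hochberg adjusted p under 0.05. These calls rest mostly on 1 peak. Among the rises 137 differed by 1 kb to within 50 bp and 137 had no spread in either group; among the falls these numbers were 50 and 48. All 156 and 65 had the same sign in the 4 differences between single libraries, against 6.60% upward and 2.93% downward among all genes tested. The test chose them on these same values, so their agreement is no separate support. With the spread of every gene held at no less than the step of 1 peak, limma called 0 genes, with 187 at an unadjusted p under 0.05, against 827 in the fit as designed. The random thinning to lists of equal length left WT replicate 1 whole and dropped Npm1c peaks, which can add falls by construction. With it, 50 genes were higher and 103 lower, so the share of calls that were higher was 32.7% in place of 70.6%. It was 58.0% with windows of 2 kb around starts and 27.2% without WT replicate 1.

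Mecom had 12.5 and 8.57 kb of H3K4me3 peak in Npm1c HSPC, against 4.53 and 4.35 kb in WT HSPC. In Flt3-ITD HSPC it had 7.58 and 10.4 kb, in DM HSPC 4.54 and 9.39 kb and in neutrophils 2.21 and 2.28 kb. Both Npm1c values lay above both WT values, but the Npm1c replicates differed more than the WT replicates, and the log2 change of 1.14 ± 0.36 (SE) had an adjusted p of 0.573 (limma). None of its crossed sets held a region.

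Genes of stem and progenitor cells as a list carried more H3K4me3 in Npm1c HSPC without any member passing the test. Summed over 24 genes, the peaks came to 127.5 and 109.8 kb in the Npm1c libraries, against 87.1 and 97.5 kb in the WT libraries, which do not overlap. With lists of equal length the sums were 102.5 and 103.8 kb in Npm1c HSPC, against 87.1 and 88.5 kb in WT HSPC. In Flt3-ITD HSPC the sums were 101.0 and 130.4 kb, in DM HSPC 79 and 104.7 kb and in neutrophils 85.5 and 84.3 kb. Of the 24 members, 13 had a higher and 3 a lower mean, and the median log2 change was 0.19, against 0.00 over all genes tested. In 6 members (Erg, Hmga2, Mecom, Msi2, Runx1 and Slamf1) both Npm1c libraries lay above both WT libraries, and in 1 (Spi1) below; over all 16134 genes tested this held for 6.60% and 2.93%. A gained region was present in 7 of the 24, or 29.2%, against 4.59% of all genes and 6.22% of the genes tested. The median span was 35.1 kb in the list, against 22.9 kb over the genes tested.

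Erg, an ETS factor of stem cells, had 10 and 10 kb in Npm1c HSPC, against 5 and 6 kb in WT HSPC. Hmga2, a chromatin protein of fetal stem cells, had 9 and 7 kb in Npm1c HSPC, against 5 and 5 kb in WT HSPC. A gained region of Hmga2 lay on a start, but a WT peak lay within 1 kb of that start, which was therefore not among the gained starts. Msi2, an RNA-binding protein of stem cells, had 16 and 13 kb in Npm1c HSPC, against 9 and 10 kb in WT HSPC. These 3 genes had no overlap between groups, at adjusted p of 0.220, 0.249 and 0.865 (limma). Slamf1, the stem cell antigen CD150, had 4.54 and 3.72 kb in Npm1c HSPC, against 2 and 2.47 kb in WT HSPC. Kit, the stem cell factor receptor, had 8 and 4 kb in Npm1c HSPC, against 5 and 4 kb in WT HSPC, and Cd34 had 1 kb in each of the 4 libraries. The defining progenitor genes were thus marked in both genotypes.

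**Figure D4:**
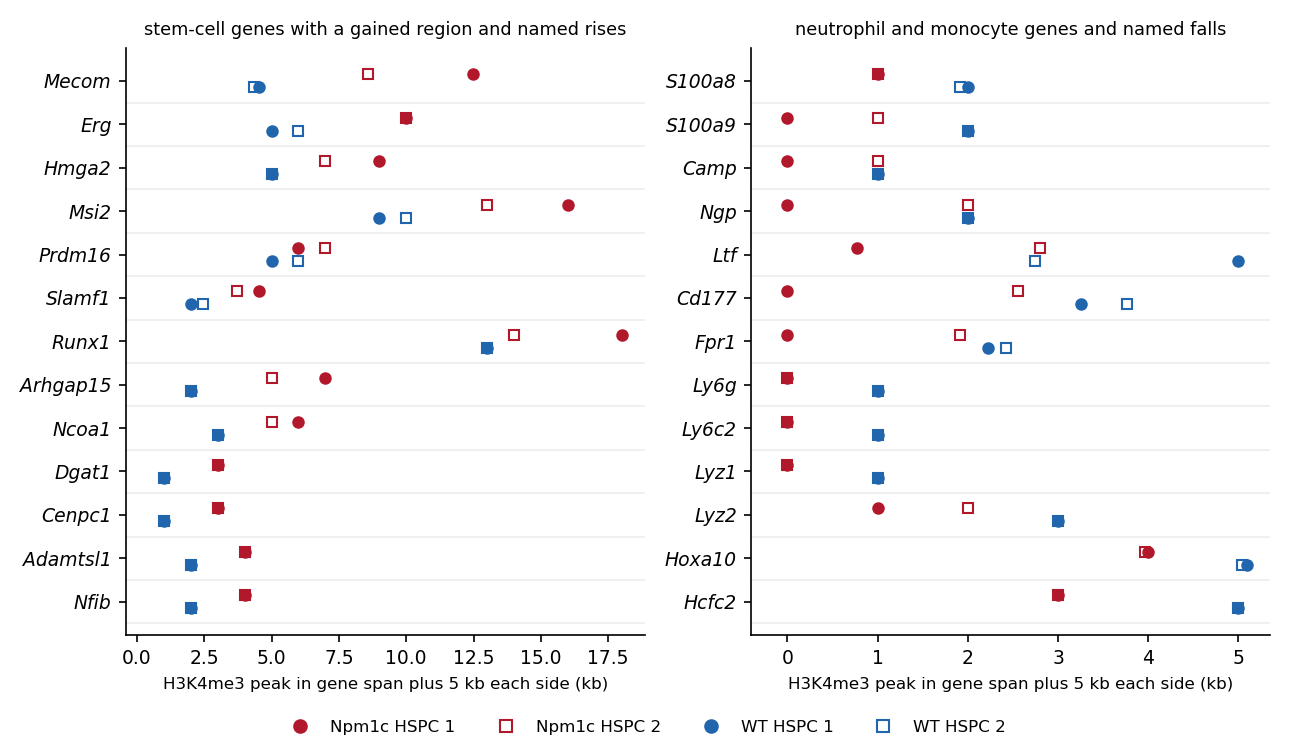
H3K4me3 peak length (x axis, kb) in the span of each gene plus 5 kb on each side, in the 2 Npm1c (red) and 2 WT (blue) HSPC libraries (filled circle, replicate 1; open square, replicate 2). Mecom, Erg, Hmga2 and Msi2 have both red points right of both blue ones; for Camp and Ngp the red square reaches the WT value and the red circle is at 0.

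Genes of mature neutrophils carried less H3K4me3 in Npm1c HSPC, above all in replicate 1. Summed over 25 annotated genes, the peaks came to 24.4 and 38.9 kb in Npm1c HSPC, against 45.1 and 41.5 kb in WT HSPC. With lists of equal length the groups overlapped, at 19.4 and 35.9 kb in Npm1c HSPC, against 45.1 and 35.3 kb in WT HSPC. In Flt3-ITD HSPC they came to 23.4 and 28.3 kb, in DM HSPC to 19.4 and 20.1 kb and in neutrophils to 58.4 and 64.5 kb. A peak was present at 11 and 18 of the genes in the Npm1c libraries, at 19 in each WT HSPC library and at 21 in each neutrophil library. Of 21 genes tested, 12 had a lower and 4 a higher mean, against 2735 and 4440 of all 16134 genes tested. The median log2 change of the list was -0.55. Both Npm1c libraries lay below both WT libraries in 4 (Cd177, Fpr1, S100a8 and S100a9) and above them in 2 (Ifitm6 and Mmp9). Over all genes tested this held for 2.93% and 6.60%. A lost region was present in 7 of 25 genes, or 28.0%, against 1.57% of all genes and 2.13% of the genes tested.

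S100a8 was the member that fell, at 1 kb in each Npm1c library, against 2 and 1.92 kb in the WT libraries (log2 change -0.71, limma adjusted p = 2.48e-06). With the gene span alone, without the 5 kb on each side, its log2 change was 0.10, and with 2 kb around starts it was 0.0. The difference at S100a8 thus lay in the 5 kb beside the gene. S100a9 had 0 and 1 kb in Npm1c HSPC, against 2 kb in each WT library (adjusted p = 0.561, limma). Ngp, a granule protein, had 0 and 2 kb in Npm1c HSPC, against 2 and 2 kb in WT HSPC. Cd177, a neutrophil surface antigen, had 0 and 2.55 kb in Npm1c HSPC, against 3.26 and 3.77 kb in WT HSPC. Fpr1, the formyl peptide receptor, had 0 and 1.92 kb in Npm1c HSPC, against 2.22 and 2.43 kb in WT HSPC. Replicate 1 of Npm1c was at 0 for S100a9, Camp, Ngp, Cd177, Fpr1 and Fpr2, while replicate 2 had a peak at each of them.

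In the monocyte and macrophage list, Ly6c2 and Lyz1 fell. Both had 0 kb in each Npm1c library, against 1 kb in each WT library. The lost region counted for Lyz1, chr10:117284386-117285453, held no start and lay 2114 bp from the nearest one. With the gene span alone Lyz1 had too few covered libraries to be tested, so its difference lay in the 5 kb beside the gene. Lyz2, the lysozyme of macrophages and neutrophils, had 1 and 2 kb in Npm1c HSPC, against 3 and 3 kb in WT HSPC (adjusted p = 0.850, limma). The list summed to 15.9 and 18 kb in Npm1c HSPC, against 20.8 and 22.2 kb in WT HSPC, and to 23.6 to 29.2 kb in the 4 Flt3-ITD and DM libraries. Of 13 genes tested, 3 had a higher and 7 a lower mean, with a median log2 change of -0.24. Lyz1 and Lyz2 are close copies, so their reads may have been split. The primary granule list showed no such order: its sums were 29.3 and 30.8 kb in Npm1c HSPC, against 30.7 and 35.1 kb in WT HSPC, and none of 15 members passed the test. Mpo (myeloperoxidase) had 2 and 3 kb in Npm1c HSPC, against 4 and 5 kb in WT HSPC, and Cebpa, a granulocyte transcription factor, had 2 kb in each Npm1c library, against just over 1 kb in each WT library.

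Whether the lower neutrophil and monocyte marks come with fewer such cells in the fraction was not tested; Stfa1, Stfa2, Stfa2l1 and Mrgpra2a were at 0 in all 4 libraries and in neutrophils. Erythroid genes overlapped between the groups (64 and 47.6 kb in Npm1c HSPC, against 56 and 60.8 kb in WT HSPC), and so did megakaryocyte genes (80.2 and 63 kb in Npm1c HSPC, against 61.1 and 67.1 kb in WT HSPC) and T and NK cell genes (24.7 and 21 kb in Npm1c HSPC, against 21 and 28.6 kb in WT HSPC). No erythroid, megakaryocyte, T and NK cell or mast cell, basophil and eosinophil gene passed the test. In the B-lymphoid list, with 38.3 and 38.5 kb in Npm1c HSPC against 35.9 and 36.1 kb in WT HSPC, Fcrla fell (1 kb in each Npm1c library, against 2 kb in each WT library). With lists of equal length the B-lymphoid sums overlapped. In the same list Ebf1, the early B-cell factor, had 8.55 and 6.59 kb in Npm1c HSPC, against 4.25 and 3.42 kb in WT HSPC (adjusted p = 0.113, limma). In the dendritic cell list H2-Eb1 fell with the same values as Fcrla.

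**Figure D5:**
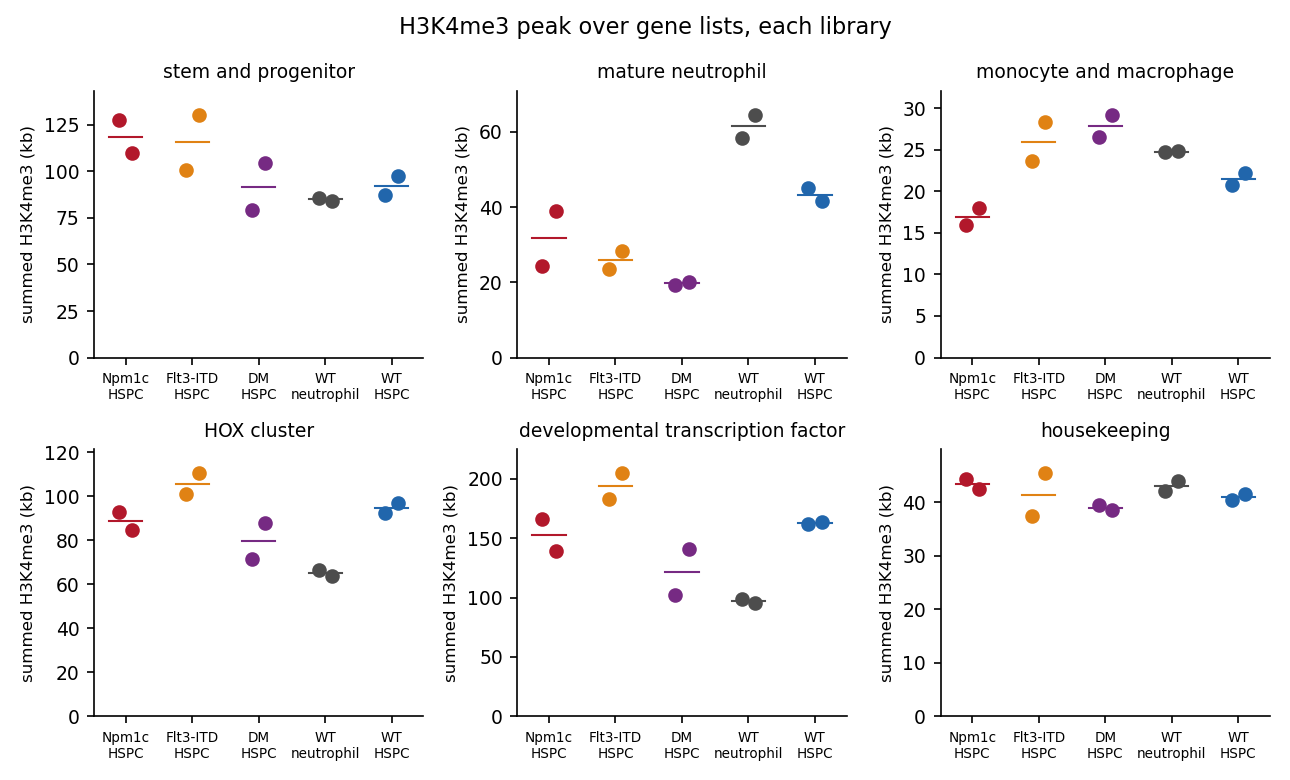
Summed H3K4me3 peak length (y axis, kb) over 6 gene lists in each of 10 libraries (points; the line is the mean of 2). The stem and progenitor sums of Npm1c HSPC (127.5 and 109.8 kb) lie above those of WT HSPC (87.1 and 97.5 kb), and the mature neutrophil sums (24.4 and 38.9 kb) lie below those of WT HSPC (45.1 and 41.5 kb).

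HOX genes, the genes most often named with Npm1c, gained no H3K4me3 region in Npm1c HSPC, whereas H3K27ac was higher over Hoxa and Hoxb. The Hoxa cluster had 17 and 16 kb of H3K4me3 in Npm1c HSPC, against 18 and 18 kb in WT HSPC. Its H3K27ac was 23.5 and 23.8 kb in Npm1c HSPC, against 2.05 and 2.39 kb in WT HSPC. For Hoxb, H3K4me3 was 20 and 18 kb in Npm1c HSPC, against 21 and 21 kb in WT HSPC, and H3K27ac was 4.16 and 3.85 kb in Npm1c HSPC, against 0.501 and 0.490 kb in WT HSPC. Hoxc and Hoxd had no H3K27ac peak in either genotype. Hoxc had 8 and 7 kb of H3K4me3 in Npm1c HSPC, against 8 and 12 kb in WT HSPC, and Hoxd had 14 and 12 kb in Npm1c HSPC, against 13 and 13 kb in WT HSPC.

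Of the 39 HOX genes none rose and 2 fell for H3K4me3 (limma), against 0.967% and 0.403% of all genes tested. A higher mean was found in 5 and a lower one in 14, against 4440 and 2735 of all 16134 genes tested. For H3K27ac 9 of 14 tested HOX genes were higher, against 16.8% of all genes tested for that mark. With overlapping windows counted more than once, the list summed to 92.7 and 84.8 kb in Npm1c HSPC, against 92.5 and 97.2 kb in WT HSPC, and with lists of equal length to 82 and 77.8 kb in Npm1c HSPC, against 92.5 and 91.6 kb in WT HSPC. Hoxa10 fell, with 4 and 3.97 kb in Npm1c HSPC against 5.09 and 5.04 kb in WT HSPC (log2 change -0.31 ± 0.03, limma adjusted p = 0.0155). This call was lost without Npm1c replicate 1, without WT replicate 2, with the replicate block and with lists of equal length. Its H3K27ac was 8.81 and 8.82 kb in Npm1c HSPC, against 0 and 0.202 kb in WT HSPC (limma adjusted p = 0.000372). Hoxa9 fell too, with 3 kb in each Npm1c library against 3.30 and 3.32 kb in WT HSPC. Both windows take in the same lost region, chr6:52232054-52233069, which lies 1870 bp from the nearest start and carries a peak in both Flt3-ITD libraries. Hoxb3 held 2 lost regions, with 6.28 and 6.26 kb in Npm1c HSPC against 8.25 and 8.28 kb in WT HSPC (adjusted p = 0.183, limma). The cofactor Meis1 had 13 and 10.1 kb in Npm1c HSPC, against 10 and 11.2 kb in WT HSPC, which overlap, while its H3K27ac was 6.89 and 9.32 kb in Npm1c HSPC, against 0.263 and 0.709 kb in WT HSPC.

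Among the genes called by limma the largest rise in kb was at Arhgap15, a Rac-inactivating protein of blood cells. It had 7 and 5 kb in Npm1c HSPC, against 2 and 2 kb in WT HSPC (log2 change 1.36 ± 0.18, limma adjusted p = 0.0339), with 2 gained regions. Ncoa1, a nuclear receptor coactivator, had 6 and 5 kb in Npm1c HSPC, against 3 and 3 kb in WT HSPC (log2 change 0.77 ± 0.10, limma adjusted p = 0.0386). Both calls were lost without either WT replicate, with only the 4 compared libraries, with the 8 HSPC libraries, with no filter and with the replicate block. In both genes the Flt3-ITD and DM libraries also lay above WT HSPC, at 4 to 6 kb. Dgat1 and Cenpc1, for triglyceride synthesis and the centromere, had 3 kb in each Npm1c library, against 1 kb in each WT library. Adamtsl1, Nfib (a nuclear factor I protein) and Prcp had 4 kb in each Npm1c library, against 2 kb in each WT library. Adcy9, Adipor2 and Atp8b1 had 2 kb more in each Npm1c library than in each WT library. With lists of equal length Adcy9 changed sign. The calls of Cenpc1 and Adipor2 were lost with the 8 HSPC libraries and with the replicate block, and that of Adipor2 also with no filter. Stap1, an adaptor of B cells, had 2.29 and 2.23 kb in Npm1c HSPC, against 1 and 1 kb in WT HSPC. Maz had 3.86 and 3.89 kb in Npm1c HSPC, against 2.86 and 2.86 kb in WT HSPC. With the gene span alone the log2 change was 0.11 for Cenpc1, 0.01 for Stap1 and 0.01 for Maz, none of them called, so these differences lie in the 5 kb beside the genes. Cenpc1 and Stap1 are neighbours on chromosome 5 and their extended windows overlap, so the same peaks can count for both. For most of these genes the Npm1c and the WT pair were each tied, so the standard error rests on the other 6 libraries and can be close to 0.

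Among the genes called by limma the largest fall in kb was at Hcfc2, a host cell factor homologue, with 3 kb in each Npm1c library against 5 kb in each WT library. S100a7a and Apba2 had 0 kb in each Npm1c library, against 1 and 2 kb in WT HSPC (limma adjusted p = 0.0181 for each). Nup62, a nuclear pore protein, had 2 and 2 kb in Npm1c HSPC, against 3 and 3.67 kb in WT HSPC. The calls of S100a7a, Apba2 and Nup62 were lost with the 8 HSPC libraries and with only the 4 compared libraries. That of Nup62 was also lost with no filter and with the replicate block, and with 2 kb around starts its log2 change was 0.0. Brd2, a bromodomain protein, had 2.54 and 2.62 kb in Npm1c HSPC, against 3.80 and 3.77 kb in WT HSPC. At Brd2, with 1 kb on each side, 1 of 3 annotated starts was lost; at the next one, base 34121747 of chromosome 17, 273 and 262 bp of peak remained in Npm1c HSPC, against 1248 and 1240 bp in WT HSPC. Irx5, a homeobox gene of development, had 3.24 and 3 kb in Npm1c HSPC, against 4.23 and 4.07 kb in WT HSPC. Bhlha9, Asprv1 and Ly6g each had 0 kb in both Npm1c libraries, against 1 kb in both WT libraries.

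Irx5 was the call among 63 developmental transcription factor genes, of which 13 had a higher and 24 a lower mean. In 10 of them (among these Pax7, Olig2, Lhx1, Zic1, Foxc1 and Nkx2-1) both Npm1c libraries lay below both WT libraries, in 0 above, against 2.93% and 6.60% of all genes tested. With lists of equal length Irx5 changed sign. The sums of the list overlapped, with 166.5 and 138.9 kb in Npm1c HSPC against 161.8 and 163.3 kb in WT HSPC, and with lists of equal length they came to 124.3 and 127.4 kb in Npm1c HSPC, against 161.8 and 137.8 kb in WT HSPC. Acr, a sperm acrosome protease, rose in the germ cell list, with 1 kb in each Npm1c library against 0 kb in each WT library. In the AP-1 and immediate early list (50.3 and 46.4 kb in Npm1c HSPC, 50.4 and 50.9 kb in WT HSPC), the H3K4 methyltransferase and demethylase list (46.7 and 39.3 kb in Npm1c HSPC, 36.4 and 39.6 kb in WT HSPC), the housekeeping list (44.4 and 42.4 kb in Npm1c HSPC, 40.4 and 41.5 kb in WT HSPC) and the other tissue list (16.2 and 13.2 kb in Npm1c HSPC, 12.1 and 15.1 kb in WT HSPC) no gene passed the test of limma.

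At Npm1, the gene that carries the mutation, the groups overlapped. Npm1 had 1.93 and 2.54 kb of peak in Npm1c HSPC, against 2.68 and 1.63 kb in WT HSPC, which overlap, and peak positions cannot show a change within its coding sequence, so the labels could not be checked in this way. Flt3 had 5 kb in each of the 4 libraries.

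The genes called for H3K4me3 were not set apart by the other marks. For H3K27ac, 2181 of 12968 genes (16.8%) were higher and 3 (0.0231%) lower in Npm1c HSPC, with a median log2 change of 0.35 over all genes. With each library centred on its own median over genes covered in every library, 101 were higher and 4 lower. With lists of equal length the counts were 59 and 112. Without WT replicate 1, 7 were higher, and without WT replicate 2, 3. Of the 115 genes with risen H3K4me3 that were tested for it, 21 (18.3%) were higher for H3K27ac, and of the 54 with fallen H3K4me3, 7 (13.0%), shares near that of all genes. For H3K4me1, 28 of 17115 genes (0.164%) were higher and 86 (0.502%) lower in Npm1c HSPC, and centred on the median gene none was called in either direction (limma, 1022 at an unadjusted p under 0.05). Among the genes with risen H3K4me3, 1 was higher and 1 lower for H3K4me1, and among those with fallen H3K4me3 none was called in either direction (limma).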

How the data were processed

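ChIP-seq peaks of 30 libraries were deposited by the authors as coordinates (chromosome, start, end), a unit of other kind without score or count. Per the submitters' processing notes, Bowtie2 2.1.0, Picard, HOMER and MACS2 and the build mm10 were used; their settings are not known here. Depth is therefore unknown. The 5 input samples were not used. Members, gene lists and tests were chosen with earlier results of these data known.

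Peaks of the 4 H3K4me3 libraries on chromosomes 1 to 19, X and Y were merged where they overlapped or touched; a region counted as present at 1 bp of overlap. RefSeq GRCm38.p6 gave 21883 protein-coding gene spans, extended by 5 kb, and 32851 starts, none on chromosome 18. Per gene, log2(bp + 500) was fitted with limma 3.58.1 (R 4.3.3, lmFit, eBayes with trend) over the 10 libraries of a mark, in 5 groups, for genes covered in at least 2, with Benjamini-Hochberg adjustment and a threshold of 0.05. Neighbouring windows overlap, so peaks can count for several genes. Interval code was written in Python 3.11.15 with NumPy and pandas and checked, like the limma step, on simulated data. In that check limma also called unchanged genes whose libraries were tied, which limits calls that rest on 1 peak.

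Replicate numbers do not pair the libraries (correlation of deviations -0.117 for H3K4me3, 0.0942 for H3K27ac and 0.0651 for H3K4me1), so no block was used. The genes named were the 12 largest rises and 10 largest falls in kb among called genes with the same sign in all 4 differences, without clone names, and up to 4 members of each of 20 lists, called ones first; others named were chosen after their values were seen. Of the listed genes, Azu2, BC100530, Ahsp and Tpsab1 were not in the annotation used. Genes that the rule names but the text does not are not reported here. Alternatives are given in the closing section.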

Additional observations from a re-analysis of the deposited data

How the results depend on the processing

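Peak lists of this kind hold no read depth, so a peak missing from a library may be a peak under its calling threshold. Counts of genes called by limma moved with the window and the spread. Without the extension of 5 kb 100 genes were lower, with 2 kb around starts 51 were higher and 37 lower, with lists of equal length 50 and 103, with only the 4 compared libraries 399 and 165, and with the spread held at 1 peak or more 0 and 0 (187 at an unadjusted p under 0.05). Leaving out 1 library gave 226 to 886 higher and 142 to 606 lower genes. For H3K27ac, 101 genes were higher after centring on the median gene, and 59 were higher and 112 lower with lists of equal length. Leaving out 1 library gave 3 to 1239 higher and 0 to 29 lower genes. For H3K4me1, centring left 0 and 0 (1022 at an unadjusted p under 0.05). Lost regions came to 878 with lists of equal length and 883 in bins of 1 kb. Leaving out 1 library gave 2159 to 6878 gained and 848 to 2881 lost regions. Start windows gained and lost were 85 and 91 with 1 kb each side, 124 and 513 with lists of equal length, and 244 to 412 and 359 to 847 without 1 library. The neutrophil share of lost minus gained regions, with alternatives chosen after seeing the data, was -0.202 points without WT replicate 1 and up to 60.3 points without Npm1c replicate 2. With lists of equal length the log2 change was -0.43 for Adcy9 and 0.06 for Irx5; without the extension it was 0.10 for S100a8. The cause of these moves was not tested. By construction, leaving out a library also loosens the rule for gains and losses. Lists of equal length came from a single random thinning to the shortest list of the mark. For H3K4me3 and H3K27ac that list was from WT HSPC and stayed whole, so the thinning can add losses in Npm1c HSPC. Of 30 named genes, Npm1 and otherwise called genes, 20 lost their call and 2 changed sign with lists of equal length, and 29 lost their call with the spread held at 1 peak or more.

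The replicate block gave 149 higher and 60 lower genes for H3K4me3 and 1249 and 2 for H3K27ac. A crossed replicate block, chosen after seeing the data because the correlation was -0.117, gave 157 and 61 for H3K4me3.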
